A study of Mus musculus with 2 samples.

Results

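The open chromatin around 9 genes of the Notch pathway and of the choice between absorptive and secretory fate was described in 2 lists of ATAC-seq peaks, 1 from control enteroids and 1 from enteroids in which Taf4 had been inactivated. The genes were chosen by name, and the peaks by position on the mouse assembly mm9. A promoter peak lay within 1 kb of any annotated start site of the gene, and a distal peak lay elsewhere in the gene body or within 50 kb on either side of it. These rules took 99 of the 90445 peaks of the control list and 90 of the 71282 peaks of the Taf4-inactivated list. The 9 genes were set beside the 22367 protein-coding genes of the annotation, treated in the same way.

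ATAC-seq marks open DNA by the insertion of sequencing adapters by a transposase. The enteroids are epithelial cultures grown from crypts of the ileum, taken from C57Bl6/129sv mice aged 4 months. The control enteroids, labelled WT and titled ctrl_TAM, carried Taf4 lox/lox alleles without a Cre recombinase. The Taf4-inactivated enteroids, labelled KO and titled DT_TAM, carried the same alleles with VilCreER T2, a Cre made active by tamoxifen and driven by the villin promoter in intestinal epithelial cells. Both received 1 µM 4-hydroxytamoxifen (4-OHT) for 3 days. Taf4 belongs to TFIID, a complex that binds core promoters to start transcription. The presence of Cre and the loss of Taf4 thus cannot be told apart. Each genotype had 1 library, and the number of mice or cultures behind it was not stated in the sources used here. Every difference given is between these 2 libraries and has no replicate check, and no p-value between genotypes was computed.

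In the Notch pathway, a ligand on one cell binds a receptor on its neighbour, and cleavage frees the intracellular part of the receptor. This part enters the nucleus and joins the DNA-binding protein Rbpj to switch on target genes such as Hes1. Hes1 encodes a repressor that keeps Atoh1 off, and cells without Notch activity express Atoh1 and enter the secretory lineage of goblet, Paneth and enteroendocrine cells. Gfi1 acts downstream of Atoh1 in that lineage. In crypts, Notch activity also maintains the stem cells, and the secretory cells next to them present Dll1 and Dll4.

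The fold enrichment of a peak is relative to the background of its own library, and the authors' value is an average over the peak. Peaks were therefore set side by side by their percentile, which is the rank of a peak by fold within its own list on a scale up to 100, the highest fold. The control library was estimated to be 1.65 times as deep as the Taf4-inactivated library. The median fold of a peak was 2.03 in the control list and 2.45 in the Taf4-inactivated list, so the deeper library had the lower enrichment. Of 7 markers of intestinal epithelium, 7 had a promoter peak in both lists, and none of 4 leukocyte markers had one in either list. The strongest promoter peak of the epithelial markers was lower in percentile after inactivation at 4 and higher at 3, with a median difference of -9.07 points. It was at 94.4 and 77.5 for the stem cell gene Lgr5, 87.6 and 68.8 for Epcam, 94.0 and 75.1 for Vil1 and 9.74 and 0.679 for Cdx1, while Cdx2, Krt8 and Olfm4 differed by less than 4 points. Ranked by −log10 p, 4 were lower and 3 higher, with a median difference of -4.60 points. On that scale Lgr5 differed by -12.8, Epcam by -12.2 and Cdx1 by -25.8 points. The direction turned at Vil1, with 1.27 points, and at Cdx2, with -4.60. Of 3 endothelial markers, Kdr had a promoter peak in both lists, Pecam1 in control and Cdh5 in neither. The 4 fibroblast and muscle markers Col1a1, Col1a2, Pdgfra and Des had one in both lists. Kdr was at percentile 93.1 in control and 35.9 after inactivation. Des was at 81.9 and 53.2, Pdgfra at 74.3 and 33.3 and Col1a2 at 52.7 and 30.0, while Col1a1 was at 10.7 and 18.1. The part that other cell types had in the results was not tested. The targeted gene, annotated as Taf4a, kept a promoter peak in both lists, at percentile 74.7 in control and 58.7 after inactivation, and an open promoter does not show whether the gene was deleted.

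All 9 genes had a promoter peak in both lists, beside 62.7% of protein-coding genes. The 9 genes had 13 promoter peaks in each list, of which 2 in each had no overlapping partner in the other list. The share without a partner over promoter peaks of protein-coding genes was not computed, so it is not known whether this is usual. Taking the strongest promoter peak of each list, 7 of 9 genes had a lower percentile after Taf4 inactivation, beside 65.8% of the 14014 protein-coding genes with a promoter peak in both lists. By 25 points or more, none of the 9 was lower, beside 9.08%, and 1 was higher, Notch1, beside 5.93%. The median difference was -12.5 percentile points over the 9 genes and -2.77 over those 14014. At Dll1 and Dll4 the strongest peak was not the same region in the 2 lists. Taking instead the peak nearest to the main start site, 5 of 9 genes had a lower percentile and 4 a higher one, with a median difference of -5.20 points. A lower percentile was found at 65.7% of the 13172 protein-coding genes with a peak at the main start in both lists, with a median of -2.75. Of the 9 genes, 3 were higher by 25 points or more, Notch1, Dll1 and Dll4, beside 6.09%. These 3 lay between percentiles 5.96 and 25.8 in control, beside a median of 88.3 over protein-coding genes. A peak above percentile 75 cannot rise by 25 points, so the 2 shares do not have like starting points. The same limit holds for the shares of the strongest peak. The main start site was that of the first manually numbered transcript of a gene where there was one.

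**Figure D1:**
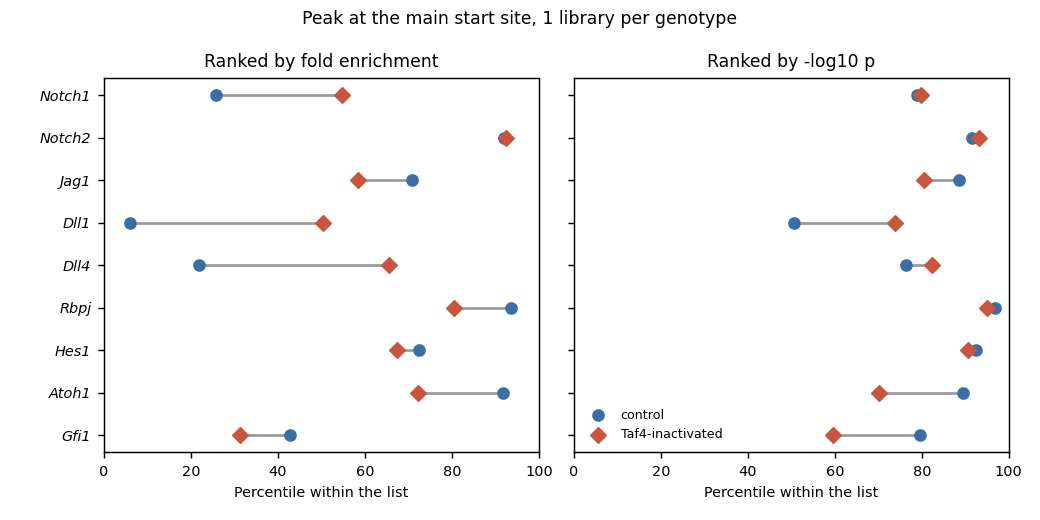
Percentile within its list of the peak at the main start site of each gene (x axis, 0 to 100), ranked by fold enrichment on the left and by −log10 p on the right, with a circle for the control and a diamond for the Taf4-inactivated library. By fold, Notch1, Dll1 and Dll4 sit between 5.96 and 25.8 in control and between 50.3 and 65.5 after inactivation, while Atoh1 is lower after inactivation in both panels.

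The peaks at the main start sites were broad, with a median width of 2217 bp in control and 2027 bp after inactivation, beside 1092 bp and 1010 bp over protein-coding genes. Their median percentile by fold was 70.9 in control and 65.5 after inactivation, beside 88.3 and 82.6 over protein-coding genes. Peaks were also compared by −log10 p, which is averaged over the peak as fold is and so does not set width aside. This value was higher after inactivation at 7 genes and lower at 2, Atoh1 and Gfi1, beside 18.6% of protein-coding genes where it was lower.

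Notch1 (ENSMUSG00000026923.8, chr2:26313423-26372183, minus strand) encodes the receptor that, with Notch2, maintains intestinal progenitors. Its main start was covered by a peak of 3238 bp in control (26356475-26359712), at percentile 25.8. In Taf4-inactivated enteroids the same stretch held 2 peaks, of which the one at the start was 710 bp wide (26358955-26359664) and lay at percentile 54.7. Ranked by −log10 p, the 2 peaks at the start were close, at percentiles 78.9 and 79.7. The 2 peaks also differed in width, and its part in the difference of 28.9 points by fold was not tested. Further starts of short transcripts inside the gene had weak peaks in 1 list alone, at 26325382-26326233 in control (percentile 4.05) and at 26322664-26323339 after inactivation (percentile 1.72). No peak lay within 1 kb of the 3 upstream start sites in either list.

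Notch2 (ENSMUSG00000027878.9, chr3:97817461-97954290, plus strand) has a single annotated start site, with a strong peak in both lists. It lay at percentile 92.0 in control (97817140-97818098) and 92.5 after inactivation (97817163-97818023), the smallest difference among the 9 genes. Its −log10 q was 6.19 and 13.3. The promoter of this receptor was therefore ranked alike in the 2 libraries, in contrast to the spread seen at the ligands.

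Jag1 (ENSMUSG00000027276.7, chr2:136907192-136942380, minus strand), a ligand of the Serrate type, had a peak of 3206 bp at its start in control and of 3477 bp after inactivation. The percentile was 70.9 in control and 58.4 after inactivation, and by −log10 p it was 88.5 and 80.5. The delta-type ligands differed in the other direction at their main starts.

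Dll1 (ENSMUSG00000014773.7, chr17:15504318-15513836, minus strand) was at percentile 5.96 in control (15511736-15513668) and 50.3 after inactivation (15511646-15513431), with like widths of 1933 and 1786 bp. By −log10 p it was at 50.6 and 73.8, so the direction was the same on both scales. Within the gene, a weaker peak at the start of transcript Dll1-005 lay at percentile 1.82 in control and 14.9 after inactivation. One more promoter peak, at 15505744-15506031, was listed in control alone, at percentile 69.5, and was the strongest of the gene there. By strongest peak Dll1 therefore went from 69.5 to 50.3, a comparison of different regions. The main start peak is also within 1 kb of a start of A930024N18Rik, and the list does not tell the promoters of these neighbours apart.

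Dll4 (ENSMUSG00000027314.6, chr2:119151520-119161698, plus strand) had promoter peaks at 2 places that differed in opposite directions. The peak at the main start was at percentile 21.7 in control (119150738-119151952) and 65.5 after inactivation (119150764-119152042), with widths of 1215 and 1279 bp. The peak near the internal start of Dll4-002, in an intron about 3.51 kb downstream, was at percentile 83.0 in control (119154834-119155194) and 10.2 after inactivation (119154902-119155167). This difference of -72.8 points was the largest at any promoter peak of the 9 genes that had a partner. By −log10 p the internal peak was at 93.0 and 54.8, and the main start at 76.5 and 82.5. A start of Gm14207 also lies within 1 kb of the main start peak.

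The central 200 bases of the internal Dll4 region, over the stretch covered by the peak of either list, are shown because its ranks were so unequal. Capitals here and in the peaks shown further on mark TGGGAA, the core bound by Rbpj, CAGCTG, an E-box bound by Atoh1 and related factors, and CACGTG, an E-box bound by Hes factors, on either strand, and the plus strand of mm9 is given.
Dll4 internal region, chr2:119154915-119155114: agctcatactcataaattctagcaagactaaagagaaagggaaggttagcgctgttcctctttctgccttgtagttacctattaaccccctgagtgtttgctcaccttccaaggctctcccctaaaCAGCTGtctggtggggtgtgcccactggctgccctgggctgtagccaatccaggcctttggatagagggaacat
The stretch held 1 CAGCTG, no TGGGAA and no CACGTG. A motif match is a description of the letters and shows no binding.

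Rbpj (ENSMUSG00000039191.6, chr5:53947018-54048684, plus strand), which encodes the DNA-binding partner of the cleaved receptors, had the most enriched promoter peak of the 9 genes in control. The peak at its main start lay at percentile 93.5 in control (53980321-53982502) and 80.4 after inactivation (53980302-53982328), and by −log10 p at 96.8 and 94.9. No peak was called at the upstream start of transcript Rbpj-202 in either list.

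Hes1 (ENSMUSG00000022528.7, chr16:30064470-30067882, plus strand), the target repressor, had a broad peak running upstream from its main start. It was at percentile 72.5 in control (30063212-30065428) and 67.3 after inactivation (30063422-30065499), and by −log10 p at 92.5 and 90.7. After inactivation alone, a peak lay in the coding part of the gene (30066942-30067323), within 1 kb of 2 internal starts. It was at percentile 5.13 by fold and 66.3 by −log10 p.

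The 250 bases before the main start of Rbpj and Hes1 are shown because these were the 2 promoters among the 9 that held TGGGAA, marked in capitals. Both genes lie on the plus strand.
Rbpj promoter, chr5:53981204-53981453: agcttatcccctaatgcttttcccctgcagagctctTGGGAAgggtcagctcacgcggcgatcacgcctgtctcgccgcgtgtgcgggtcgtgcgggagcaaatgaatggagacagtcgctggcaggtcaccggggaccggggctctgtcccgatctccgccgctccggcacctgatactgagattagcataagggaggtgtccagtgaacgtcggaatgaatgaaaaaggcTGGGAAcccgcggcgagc
Hes1 promoter, chr16:30065176-30065425: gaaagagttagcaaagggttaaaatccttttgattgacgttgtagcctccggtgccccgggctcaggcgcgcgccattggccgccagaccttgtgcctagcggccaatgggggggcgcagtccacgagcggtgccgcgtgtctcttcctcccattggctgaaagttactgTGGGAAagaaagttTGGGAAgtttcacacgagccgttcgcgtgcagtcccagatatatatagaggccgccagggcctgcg
In Hes1 the 2 matches began 80 and 66 bases before the start, both inside the peak of either list. In Rbpj they began 214 and 18 bases before it. Among 22362 promoters of protein-coding genes, 20.7% held TGGGAA and 2.57% held it at least 2 times. CAGCTG and CACGTG were in none of the 9 promoter windows, beside 11.8% and 6.60% of all promoters. The looser Hes pattern CACNAG, with N for any base, was in those of Notch1, Notch2, Dll4 and Hes1, and in 35.5% of all promoters. The 9 windows had a GC content from 56.4% at Atoh1 to 72.0% at Notch2, beside a median of 54.8% over all promoters.

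Atoh1 (ENSMUSG00000073043.4, chr6:64679140-64681227, plus strand) is the bHLH factor that commits crypt progenitors to the secretory lineage. Its peak covered the whole promoter in both lists, with 2393 bp in control (64677743-64680135) and 2438 bp after inactivation (64677728-64680165). It lay at percentile 91.8 in control and 72.3 after inactivation, and by −log10 p at 89.6 and 70.2. The difference was thus close on both scales, -19.5 and -19.4 points, at peaks of nearly equal width. Its −log10 p was 7.92 and 7.13, lower in the list in which most promoters were higher.

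Gfi1 (ENSMUSG00000029275.10, chr5:108145674-108155056, minus strand), a zinc finger repressor that acts within the goblet and Paneth lineages, had a peak of 2761 bp in control (108152753-108155513) and of 2606 bp after inactivation (108152896-108155501). The percentile was 42.8 and 31.3, and by −log10 p 79.6 and 59.7. The difference was -11.5 points by fold and -19.9 by −log10 p. The annotation gives this gene the type processed transcript, so it is not among the 22367 protein-coding genes, and a start of A430072P03Rik lies within 1 kb of its peak. By −log10 p, the main start peaks of 3 of the 9 genes, Jag1, Atoh1 and Gfi1, were lower after inactivation by more than 5 points, beside 39.1% of protein-coding genes, and those of 2, Dll1 and Dll4, were higher by more than 5, beside 13.4%. The internal Dll4 peak differed by -38.2 points on this scale.

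Away from the promoters, the 9 genes had 86 distal peaks in control and 77 after inactivation. In control 39 of the 86 had no partner in the other list (45.3%, exact 95% interval 34.6 to 56.5, counting error only), beside 52.0% of the distal peaks of protein-coding genes. In Taf4-inactivated enteroids 30 of 77 had none (39.0%, 28.0 to 50.8), beside 39.3%. The intervals take the peaks as independent, although they cluster at 9 genes, so they do not serve as a test against protein-coding genes. In control the share without a partner ran from 13.3% at Notch1 to 80% at Jag1 and Rbpj. The number of distal peaks per 100 kb of window had a median of 6.39 in control and 7.26 after inactivation, beside 5.65 and 4.44 over protein-coding genes. Gene by gene, it was higher after inactivation at Notch1 (9.45 and 11.3) and Dll1 (6.39 and 7.30) alone. It was equal at Atoh1 (4.90) and lower at the other genes, so the higher median does not describe most of them. Each gene had at least 1 distal peak with a partner.

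**Figure D2:**
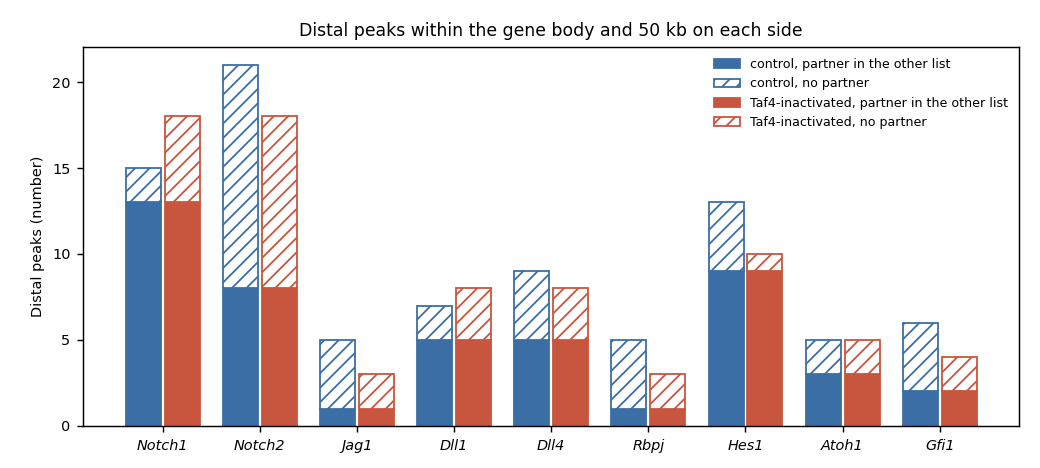
Number of distal peaks of each gene (y axis) in the control (blue) and Taf4-inactivated (red) lists, filled where the peak overlapped a peak of the other list and hatched where it did not. Notch1 shared 13 of its 15 control peaks, whereas Notch2 shared 8 of 21.

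The genes differed in how far the lists overlapped. At Notch1 13 of 15 control peaks and 13 of 18 peaks after inactivation had a partner, and at Hes1 9 of 13 and 9 of 10. At Notch2 it was 8 of 21 and 8 of 18. Jag1 and Rbpj had 5 distal peaks each in control and 3 each after inactivation, with 1 shared at each gene. Dll1 and Dll4 shared 5 each, Atoh1 3 and Gfi1 2. Of the 86 control peaks, 9 lay within 1 kb of a start of another gene, and all 9 had a partner, while after inactivation there were 10 such peaks, 2 of them without one. Intergenic peaks numbered 47 in control, 23 of them without a partner, and 42 after inactivation, 18 of them without one. Shares by place were not computed over protein-coding genes, so it is not known whether these counts are particular to the 9 genes. Peaks without a partner were narrower and weaker, with a median width of 364 bp beside 753 bp for partnered peaks in control, and 370 bp beside 628 bp after inactivation. Their median −log10 q was 1.82 in control and 1.85 after inactivation, beside 2.57 and 3.34.

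**Figure D3:**
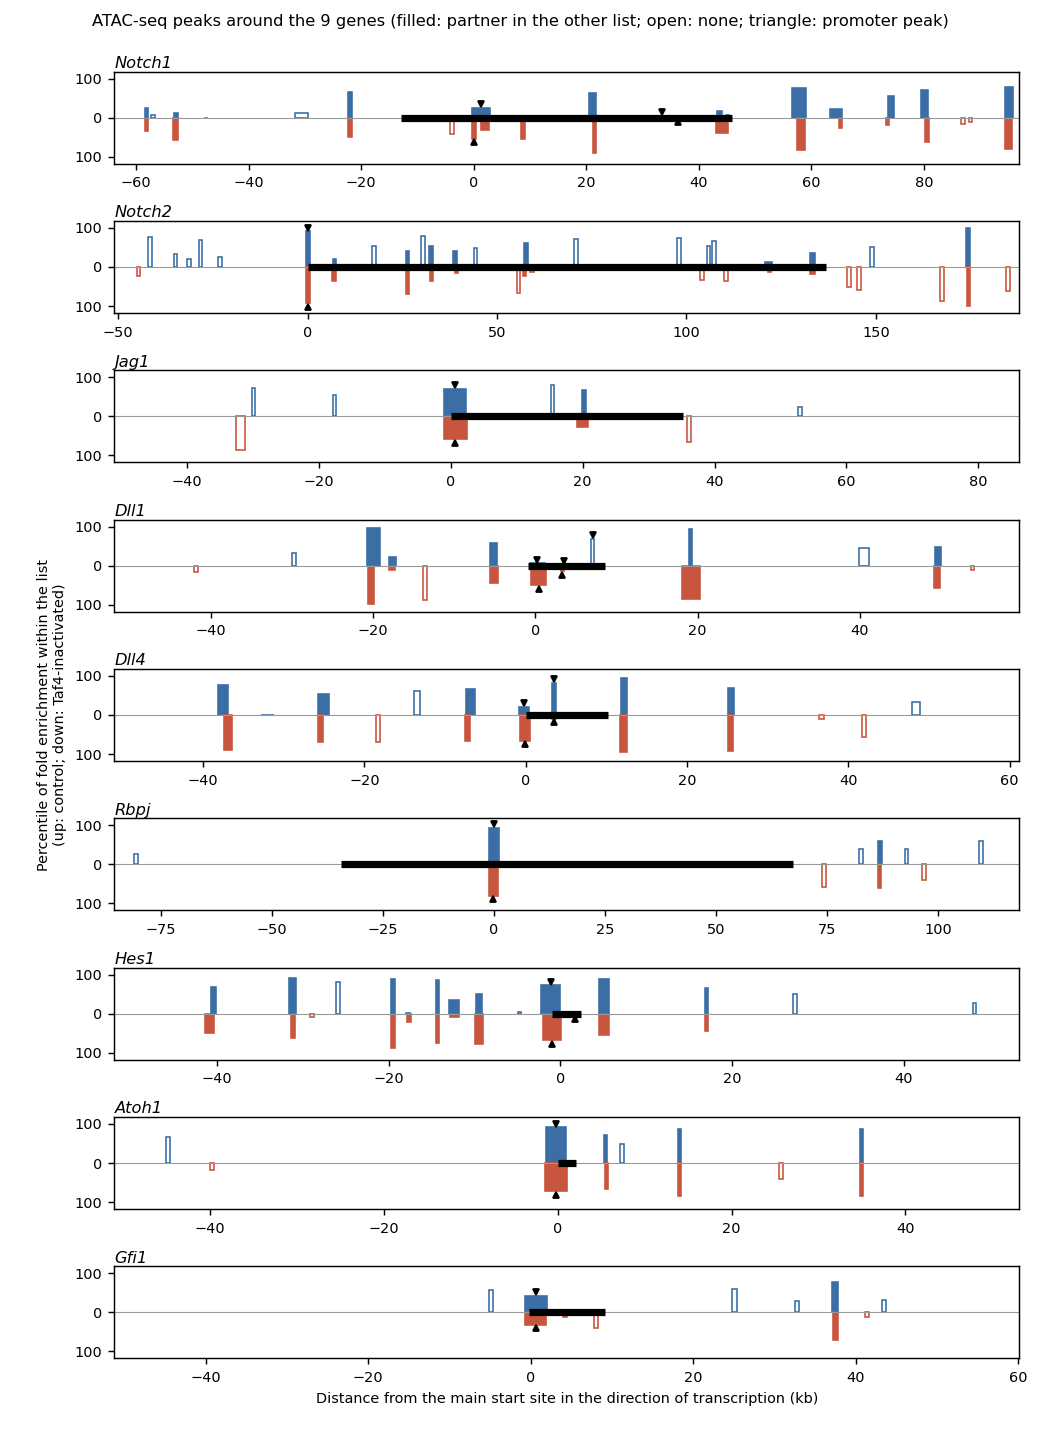
Peaks of the 9 genes by distance from the main start in the direction of transcription (x axis, kb), with the percentile of fold within the list upward for control and downward for Taf4-inactivated enteroids. The black bar is the gene, filled peaks overlap a peak of the other list, open peaks do not, and triangles mark promoter peaks. The peaks of Notch2 at its start and 174 kb downstream of it are high in both lists, and the large internal peak of Dll4 in control is small after inactivation.

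For 46 pairs of distal peaks that overlapped each other best, the median difference was -0.947 points, beside -2.08 over 35143 pairs at protein-coding genes. With ranks taken within the paired peaks alone, the median of the 46 turned to 3.41 points. After inactivation the percentile was lower in 24 and higher in 22 pairs, beside 57.2% lower at protein-coding genes. Ranked by −log10 p, 26 were lower and 20 higher, beside 60.6% lower. One pair of the 46 differed by 50 points or more, beside 5.51%. The genes differed in the direction of their pairs.

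**Figure D4:**
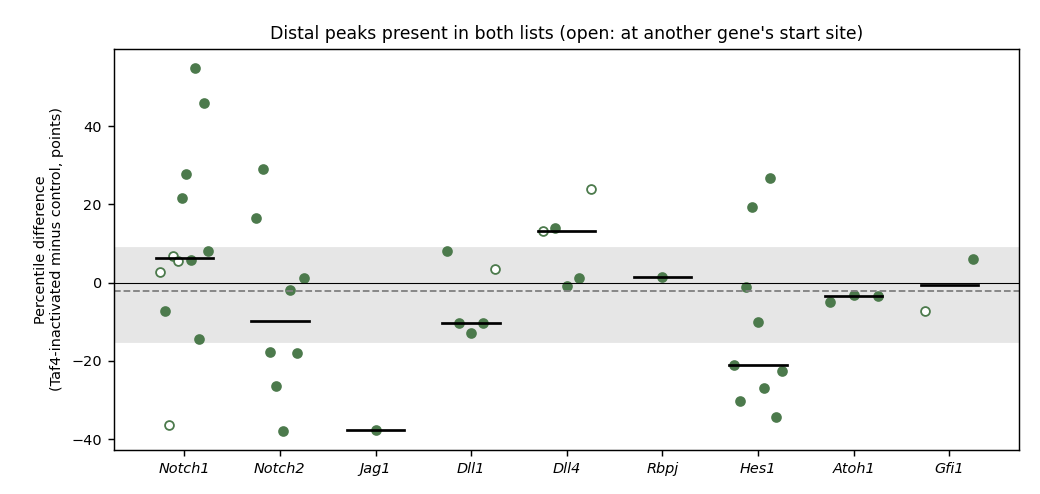
Difference in percentile of fold, Taf4-inactivated minus control (y axis, points), for each distal peak present in both lists, with 1 point per pair, open where the pair lies within 1 kb of a start of another gene, and a bar at the median of the gene. The grey band is the middle 50% of pairs at protein-coding genes and the dashed line their median of -2.08. The medians are 6.33 at Notch1 and 13.1 at Dll4, and -21.1 at Hes1, and by −log10 p they are 2.53, -0.257 and -19.6.

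At Notch1, 9 of 12 pairs had a higher percentile after inactivation, with a median of 6.33 points, and by −log10 p 8 of 12 were higher, with a median of 2.53. An intronic peak 21.5 kb downstream of the start was at percentile 62.1 in control (26337610-26338780) and 89.8 after inactivation (26337588-26338146). After inactivation it was the strongest distal peak of the gene. Its width was 1171 bp in control and 559 bp after inactivation, and by −log10 p the difference was 8.64 points. Another intronic peak, 8.89 kb downstream of the start, was at 0.365 in control (26350251-26350661) and 55.4 after inactivation (26350223-26350850). Its −log10 q was 1.07, near the lowest of the list, and 4.27. It was the pair that differed by over 50 points. In control the strongest distal peak, at 78.7, lay at the start of the neighbouring gene Inpp5e, and 4 of the 12 pairs lay at starts of other genes. The central 200 bases of the intronic region with the largest difference are given.
Notch1 intronic region, chr2:26350437-26350636: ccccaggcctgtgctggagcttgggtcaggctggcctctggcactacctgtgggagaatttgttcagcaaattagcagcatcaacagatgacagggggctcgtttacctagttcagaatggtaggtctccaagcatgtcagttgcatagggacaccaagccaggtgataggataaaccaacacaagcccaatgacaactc
This stretch held none of the 3 marked motifs.

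At Notch2, the strongest distal peak of both lists was an intergenic peak 174 kb downstream of the start, beyond the end of the gene. It lay at percentile 98.5 in control (97991450-97992184) and 99.7 after inactivation (97991574-97992211), the highest among the distal peaks of the 9 genes in each list. In contrast, 13 of 21 control peaks in its window had no partner, among them an intergenic one 41.6 kb upstream (97775205-97776516, percentile 77.6) and an intronic one 30.4 kb downstream of the start (97847776-97848019, percentile 80.1). After inactivation alone, a peak lay 167 kb downstream of the start (97984736-97985030, percentile 86.2). The 8 pairs had a median difference of -9.80 points, with 5 lower and 3 higher. The central 200 bases of the shared downstream region are given because it was the top distal peak in either list.
Notch2 downstream region, chr3:97991731-97991930: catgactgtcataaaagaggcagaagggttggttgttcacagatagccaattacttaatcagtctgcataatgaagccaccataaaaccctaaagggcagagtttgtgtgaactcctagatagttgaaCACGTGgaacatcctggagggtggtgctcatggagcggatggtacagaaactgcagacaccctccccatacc
It held 1 CACGTG, which was in 3.51% of control and 3.64% of Taf4-inactivated windows of peaks over 1 kb from any start site.

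Among the ligands, Jag1 had its strongest distal peaks without partners. In control this was an intronic peak 15.4 kb downstream of the start (136926751-136927192, percentile 79.0), and after inactivation an intergenic peak 31.9 kb upstream (136973620-136975007, percentile 86.2). The 1 shared peak, over a coding exon, was at 66.3 and 28.7. At Dll1, the strongest peak in either list lay at the start of Fam120b, at 95.6 in control and 99.1 after inactivation. The strongest shared peak away from other starts, 19.1 kb downstream, was at 94.6 in control (15493600-15494052) and 84.3 after inactivation (15492599-15494825). After inactivation alone, a peak 13.6 kb upstream of Dll1 (15526403-15526722) was at percentile 88.2 with a −log10 q of 7.23, the strongest of the 30 peaks without a partner in that list. Its central 200 bases are given.
Dll1 upstream region, chr17:15526463-15526662: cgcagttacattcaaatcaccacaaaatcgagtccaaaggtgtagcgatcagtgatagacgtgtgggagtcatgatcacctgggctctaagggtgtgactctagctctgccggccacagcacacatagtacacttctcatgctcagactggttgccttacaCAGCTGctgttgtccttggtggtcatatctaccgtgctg
The stretch held 1 CAGCTG and no TGGGAA.

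At Dll4, 4 of 5 pairs had a higher percentile after inactivation, and the median was 13.1 points. By −log10 p the direction turned, with 3 of 5 pairs lower and a median of -0.257 points. At Dll1 the median also turned, from -10.3 points by fold to 4.24 by −log10 p. The strongest Dll4 pair, 12.2 kb downstream of the start and just past the end of the gene, was at 94.4 in control (119163295-119164049) and 95.6 after inactivation (119163219-119164049). The pairs at the starts of Vps18 and Chac1 differed by 13.1 and 23.8 points, so the median was itself the pair at the promoter of a neighbour. Around Rbpj, the single shared peak, 86.8 kb downstream of the main start, was at 58.9 and 60.5. The strongest distal peak in control, at 60.7, was 110 kb downstream, in a coding exon of Cckar, and had no partner. No distal peak of Rbpj reached percentile 75 in either list.

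At Hes1, 7 of 9 pairs had a lower percentile after inactivation, with a median of -21.1 points. A peak 5.11 kb downstream of the start was at 88.5 in control (30069906-30071108) and 54.1 after inactivation (30069956-30071107), at nearly the same coordinates. A peak 31.1 kb upstream was at 92.1 in control (30033819-30034620), the strongest distal peak there, and at 61.9 after inactivation (30034139-30034417). Further pairs were lower, at 40.5 kb upstream (69.5 and 48.4) and 17.0 kb downstream (66.7 and 44.2). The peak 19.5 kb upstream was nearly level, at 88.0 and 86.9, and was the strongest after inactivation. The 2 pairs with a higher percentile lay 9.49 kb upstream (51.3 and 78.2) and 17.8 kb upstream (1.93 and 21.4). In control alone, a peak lay 25.9 kb upstream (30039271-30039745, percentile 82.1). No distal peak of Hes1 lay at a start of another gene. By −log10 p, 7 of 9 pairs were again lower, with a median of -19.6 points. The pairs 5.11 kb downstream and 31.1 kb upstream differed by -19.6 and -32.2 points, and the pair 17.8 kb upstream by 44.8, the largest difference at Hes1 on this scale.

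The peak 14.3 kb upstream of Hes1, at 85.8 in control (30050958-30051246) and 75.8 after inactivation (30050952-30051222), is shown because its centre held both kinds of motif, TGGGAA (or its reverse complement TTCCCA) 2 times and CAGCTG 2 times.
Hes1 upstream region, chr16:30051000-30051199: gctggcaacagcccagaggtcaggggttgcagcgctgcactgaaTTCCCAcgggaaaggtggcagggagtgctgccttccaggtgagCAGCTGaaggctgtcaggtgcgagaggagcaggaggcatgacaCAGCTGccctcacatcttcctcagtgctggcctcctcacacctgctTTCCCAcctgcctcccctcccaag
At least 2 TGGGAA were in 2.01% and at least 2 CAGCTG in 1.51% of windows of the same length at control peaks over 1 kb from any start.

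Around Atoh1, 3 of 5 distal peaks in each list had a partner, and their ranks were close. They lay 5.52, 14.0 and 34.9 kb downstream of the start. The first was at percentile 71.5 in control (64684515-64684753) and 66.6 after inactivation (64684573-64684941). The second was at 88.3 and 85.3, and the third at 86.9 and 83.4. The differences of -4.96, -3.01 and -3.49 points were each smaller than the -19.5 at the promoter. The region 5.52 kb downstream lies on the side where an enhancer bound by Atoh1 itself is known.
Atoh1 downstream region, chr6:64684629-64684828: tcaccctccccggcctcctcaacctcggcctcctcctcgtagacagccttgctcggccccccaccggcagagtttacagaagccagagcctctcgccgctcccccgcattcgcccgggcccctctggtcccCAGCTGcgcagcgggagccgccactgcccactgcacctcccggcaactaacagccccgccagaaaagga
It held 1 CAGCTG, beside 15.4% of control and 15.2% of Taf4-inactivated windows. Around Gfi1, 2 peaks had a partner. One, 37.5 kb downstream at the start of Gm17717, was at 77.2 and 69.9, and the other, inside the gene, at 5.03 and 11.2. The remaining 4 control peaks of Gfi1 had no partner and were between percentiles 29.1 and 60.3.

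Counted over distal peaks away from other starts, TGGGAA was in the central 200 bases of 11 of 77 control peaks (14.3%) and of 11 of 67 peaks after inactivation (16.4%). In all peaks over 1 kb from any start the shares were 19.6% and 19.0%. CAGCTG was in 11 of 77 (14.3%) and 15 of 67 (22.4%), beside 15.4% and 15.2%. CACGTG was in 5 of 77 (6.49%) and 5 of 67 (7.46%), beside 3.51% and 3.64%, and CACNAG in 31 of 77 (40.3%) and 34 of 67 (50.7%), beside 37.1% and 37.9%. Many of these peaks are the same regions in both lists, and the shares were not tested.

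The wider pathway was described by 54 further genes in 4 lists, of which 48 had a promoter peak in both lists, 3 in control alone and 3 in neither. Over the 48, the strongest promoter peak was lower after inactivation in 29 and higher in 19, with a median of -0.852 points. By 25 points or more, 7 were higher, beside 5.93% of protein-coding genes, and 6 were lower, beside 9.08%. A peak above percentile 75 in control cannot rise by 25 points, so these shares also depend on the percentile in control. A promoter peak in control alone was found at 5.70% of protein-coding genes. The size of these differences rested on the ranking. By −log10 p of the same peaks, 32 of the 48 were lower and 16 higher. Over protein-coding genes 65.8% were lower by fold, and the share by −log10 p was not computed. Of the 7 genes higher by 25 points or more in fold, 6 were also higher by −log10 p but 1 by 25 points or more, Creb3l1, and of the 6 lower ones all were also lower by −log10 p, 3 of them by 25 points or more.

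**Figure D5:**
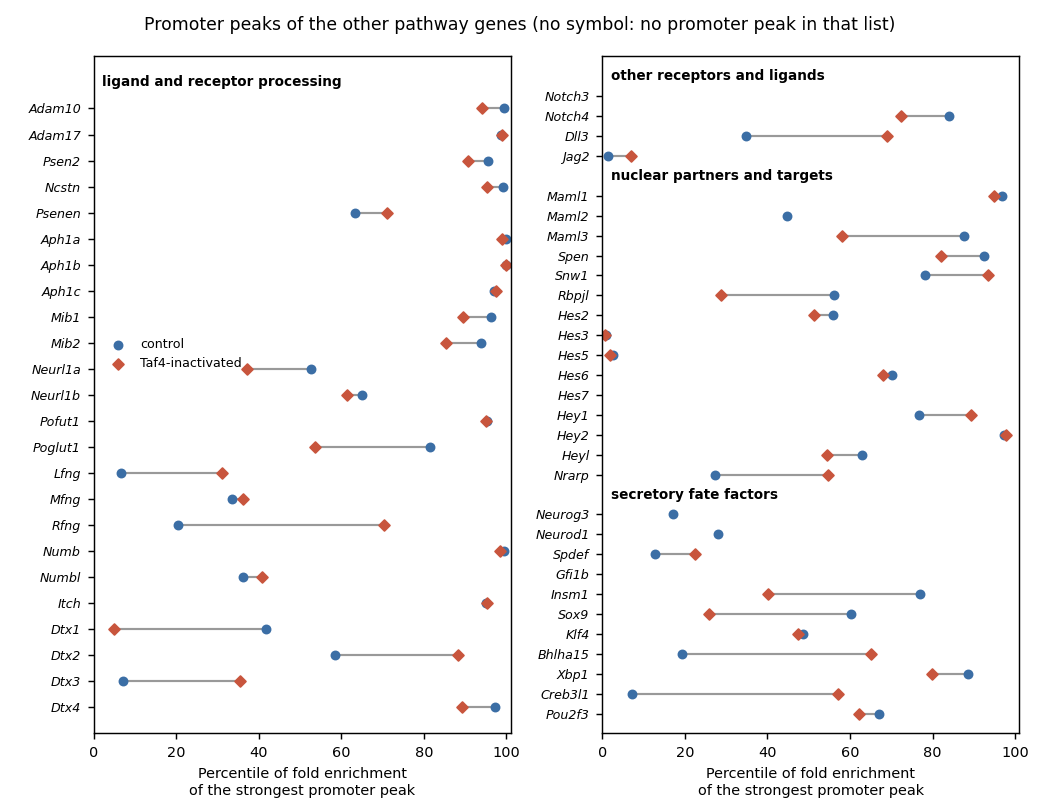
Percentile of fold of the strongest promoter peak (x axis, 0 to 100) of the 54 further pathway genes in the control (circle) and Taf4-inactivated (diamond) lists, grouped by role. The proteases Adam10 and Adam17 lie at the right in both lists, and Insm1 and Sox9 are lower after inactivation while Bhlha15 and Creb3l1 are higher.

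All 24 genes that process ligands and receptors had a promoter peak in both lists. The proteases Adam10 and Adam17, which cut within the extracellular part of membrane proteins such as the receptor, were among the highest, with Adam10 at 99.4 in control and 94.1 after inactivation, and Adam17 at 98.7 and 98.9. The Fringe enzyme Rfng, which adds sugars to the receptor, was at 20.5 and 70.4, a difference of 49.9 points by fold and of 6.26 by −log10 p. Poglut1, which also glycosylates the receptor, was at 81.5 and 53.7, and its difference by −log10 p was -30.1 points. The 53.7 was not the peak at its main start, which was at 81.5 in control and 29.7 after inactivation. Among the Deltex genes, Dtx1 was at 41.8 and 5.0, Dtx2 at 58.5 and 88.2, and Dtx3 at 7.23 and 35.5. By −log10 p they differed by -47.0, 21.5 and 22.5 points, so the directions held on both scales. The 41.8 of Dtx1 in control was not at its main start. There Dtx1 was at 23.8 in control and 5.0 after inactivation, a difference of -18.8 points.

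Among the other receptors and ligands, Notch3 had no promoter peak. Dll3 was at 34.8 in control and 69.1 after inactivation, with a difference of 8.99 points by −log10 p. Neither list had a peak at the main start of Dll3. Of 15 nuclear partners and targets, 13 had a promoter peak in both lists. Maml2, a coactivator of the receptor complex, had one in control alone, at percentile 44.8. Its relative Maml3 was at 87.6 and 58.2, and Rbpjl, a relative of Rbpj, at 56.2 and 28.7, with differences of -13.7 and -20.3 points by −log10 p. Nrarp, a target that limits Notch signalling, was at 27.3 and 54.6 by fold, but by −log10 p at 80.7 and 78.0, so its direction turned.

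Of 11 secretory fate factors, 8 had a promoter peak in both lists. Neurog3 and Neurod1, bHLH factors of the enteroendocrine lineage, had one in control alone, at percentiles 17.1 and 28.1. Insm1, another enteroendocrine factor, was at 77.0 in control and 40.1 after inactivation, and Sox9, needed for Paneth cells, at 60.2 and 25.9, and by −log10 p they differed by -25.2 and -19.0 points. In the other direction, Bhlha15, a factor of secretory cells also known as Mist1, was at 19.2 and 65.1, and Creb3l1 at 7.26 and 57.2. By −log10 p the difference was 6.93 points at Bhlha15, beside 45.9 by fold, and 51.1 at Creb3l1. Spdef and Klf4, factors of goblet cells, were at 12.7 and 22.4 and at 48.6 and 47.5. The direction at Spdef turned by −log10 p, with -6.22 points. At its main start Spdef had a peak in control alone, at percentile 9.23, so the 22.4 was at another start. Over the 8 factors with both peaks, 5 were lower and 3 higher, with a median of -2.97 points.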

How the data were processed

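The 2 peak lists of ATAC-seq were assigned to control and Taf4-inactivated enteroids by the genotype in the labels. Per the labels and the submitters' processing notes, the authors used bcl2fastq 2.17.1.14, Bowtie 1.0.0 and MACS2 2.1.1 with mm9, and the study's methods state that uniquely mapping reads were kept. Broad peaks were called in each library on its own, so the lists depend on depth. The authors' values per peak are a score, a fold enrichment ratio relative to that library's own background, −log10 p and −log10 q, averaged over the peak. The deposited score was not used further. Read counts and the treatment of duplicates were not given in the sources used here.

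Peaks were put in 1-based coordinates and set against GENCODE start sites of the same build (NCBIM37), as promoter (within 1 kb of a start of the gene) or distal (gene body and 50 kb each side). Peaks sharing at least 1 bp were partners, and pairs that overlapped each other best were compared by percentile. The main start was that of the first manual transcript, else the automatic transcript of lowest number. For relative depth, the background giving both the fold and the Poisson p was solved for the narrowest 10% of peaks, and its percentile 5 was used. The overlap, pairing and depth steps were tested on simulated data. Shares have exact (Clopper-Pearson) 95% intervals, for counting error only. Python 3.11.15, numpy 2.4.6, pandas 2.3.3, scipy 1.17.1, pysam 0.24.0 and matplotlib 3.10.9 were used.

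Named were the 9 genes, their promoter peaks, the strongest distal peak in each list, distal pairs differing by 50 points or more, partnerless distal peaks from percentile 75, and pathway genes with a promoter peak in 1 list or differing by 25 points or more. The pathway genes were held in 4 lists, of which 1 gene is not reported here. Further peaks and genes were named after their values were seen, among them the other Hes1, Atoh1, Notch1 and Gfi1 pairs, Adam10, Adam17, Spdef, Klf4, the markers of other cell types and the sequences shown. The genes and lists were chosen with earlier results of these data known. Alternatives changed start distance, window, q threshold, overlap, ranking value and transcripts used, and those on the main start peak and on ranks within pairs were chosen after seeing the data.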

Additional observations from a re-analysis of the deposited data

How the results depend on the processing

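The promoter peaks of the 9 genes held under each start distance and with −log10 q of at least 2, while with −log10 q of at least 5 there were 6 genes with one in control and 7 after inactivation, and with protein-coding transcripts alone 8 in each list, since Gfi1 has none. The median difference of the strongest promoter peak was -12.5 points as reported, -4.25 ranked by −log10 p, -5.20 at the main start and 0.244 ranked by width. Ranked by width, the sign also turned at Notch1 (-36.4), Notch2 (-1.40), Jag1 (0.121), Dll1 (0.320) and Dll4 (5.18). The same held at Rbpj (0.244), Hes1 (0.306), Atoh1 (0.579) and Gfi1 (0.0982). Dll4 turned to 43.8 with start sites within 0.5 kb, and at the main start Dll1 turned to 44.4 and Dll4 to 43.8, since other peaks were then compared. The cause of the other changes was not tested.

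Distal peaks numbered 49 in control and 48 after inactivation with −log10 q of at least 2, 11 and 21 with at least 5, 49 after inactivation within 25 kb, and 141 and 120 within 100 kb. The share without a partner was 69.8% in control and 66.2% after inactivation when 50% of both peaks had to overlap, and 9.09% and 52.4% with −log10 q of at least 5, where the order of the lists turned. The shares over protein-coding genes were not computed under these settings, so it is not known whether the turn is particular to the 9 genes. The median of distal pairs was -0.947 points as reported and between -3.61 and 3.41 points under its 5 alternatives. The sign turned, to 3.41, when ranks were taken within the paired peaks alone. Percentiles within the whole lists also depend on the peaks without a partner, and the lists differ in length. The value over protein-coding genes was not computed under this setting. The depth ratio stayed at 1.65 with all peaks. No paired analysis was possible because each genotype had 1 library and the labels carry no pairing. Leaving a library out was likewise impossible. The lists hold no reads, so a region without a peak was not detectable at this depth, and the 2 depths and enrichments differ.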
